A study of Homo sapiens with 2 samples.

Results

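Fatty acid oxidation and lipid droplet storage were followed through 10 genes, chosen by name from the 16005 genes of the deposited expression table: CPT1A, CPT1C and CPT2 of the carnitine shuttle, ACADVL, ACADM and HADHA of mitochondrial beta-oxidation, DGAT1 and PLIN2 of lipid droplet formation, and PNPLA2 and HILPDA of droplet breakdown. All 10 were in the table. The cells were BE(2)-C, a clonal, established human neuroblastoma line labelled wild type, in which MYCN is amplified. They had been grown in the classical medium EMEM/F12 or in HPLM (human plasma-like medium), which is composed to resemble the metabolites and salts of blood plasma. The culture lasted 7 days in either medium, and both held 10% fetal bovine serum and 1% penicillin-streptomycin. GEO lists 1 sample per medium, and the table holds 3 libraries of each, with 17504237 to 21676080 reads per library. No label tells whether these came from separate cultures, so every p-value below reflects only the spread between libraries, which may be technical.

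Long-chain fatty acids are activated to acyl-CoA and pass into mitochondria as carnitine esters. CPT1 enzymes make the ester at the outer membrane, under inhibition by malonyl-CoA, and CPT2 turns it back at the inner membrane. Chain-length-specific dehydrogenases such as ACADVL and ACADM and the trifunctional protein, of which HADHA is the alpha subunit, then shorten the chain to acetyl-CoA. Surplus acyl chains are esterified to triacylglycerol by enzymes that end in DGAT1 or DGAT2, and are stored in droplets coated by perilipins such as PLIN2. PNPLA2, also called ATGL, starts their release, and HILPDA and G0S2 are known as inhibitors of that enzyme.

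HADHA and HADHB, which encode the alpha and beta subunits of the same trifunctional protein, start head to head on chromosome 2, and their promoter is shown because the pair behaved differently in the 2 media. Windows reaching from 250 bases before to 50 bases after each start were taken from RefSeq on GRCh38.p14. Of the 10 members, 8 had at least 1 window (CPT1A, CPT1C, CPT2, ACADM, ACADVL, HADHA, PLIN2 and PNPLA2). The annotated RefSeq starts of HADHA and HADHB lie 307 bases apart, and their windows share 194 bases. The HADHA window, chr2:26244583-26244882 on the minus strand, is printed with that shared stretch in capitals.
HADHA: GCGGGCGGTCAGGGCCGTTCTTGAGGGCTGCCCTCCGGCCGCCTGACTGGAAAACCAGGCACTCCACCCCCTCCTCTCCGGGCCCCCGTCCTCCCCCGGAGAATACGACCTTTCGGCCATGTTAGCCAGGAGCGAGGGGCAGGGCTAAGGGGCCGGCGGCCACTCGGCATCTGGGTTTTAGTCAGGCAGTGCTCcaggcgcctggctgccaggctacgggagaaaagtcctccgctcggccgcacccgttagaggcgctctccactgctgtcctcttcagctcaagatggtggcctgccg

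Among 6 motifs searched on both strands in the windows of the members, PLIN2 held the E-box CACGTG, which begins 69 bases before its start, and ACADVL, CPT1C and PLIN2 held the hypoxia response core ACGTG. The core lies within the E-box, so these matches overlap in PLIN2, which has another core 120 bases before its start. The core occurs in 21.4% and the E-box in 7.26% of all 35116 RefSeq promoter windows of that length. These shares are per window, not per gene. CPT1C has 3 windows and ACADVL has 2, and each held the core only in the last of its windows. The other motifs were the PPAR direct repeat (in 0.0228% of all windows), the NRF1 element (1.24%), the ERR element TCAAGGTCA (0.353%) and the ATF4 element TGATGCAA (0.866%), and none of them stood in the windows of the 8 members. The PLIN2 window (chr9:19127443-19127742, minus strand) and the second of the ACADVL windows (chr17:7219688-7219987, plus strand) are printed with the motif letters in capitals, as the members that held ACGTG closest to their starts.
PLIN2: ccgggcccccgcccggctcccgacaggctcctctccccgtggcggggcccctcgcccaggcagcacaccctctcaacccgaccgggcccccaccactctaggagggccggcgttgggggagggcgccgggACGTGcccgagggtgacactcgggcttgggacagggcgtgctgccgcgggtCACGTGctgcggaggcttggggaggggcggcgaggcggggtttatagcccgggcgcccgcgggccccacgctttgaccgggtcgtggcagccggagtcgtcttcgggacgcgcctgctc
ACADVL: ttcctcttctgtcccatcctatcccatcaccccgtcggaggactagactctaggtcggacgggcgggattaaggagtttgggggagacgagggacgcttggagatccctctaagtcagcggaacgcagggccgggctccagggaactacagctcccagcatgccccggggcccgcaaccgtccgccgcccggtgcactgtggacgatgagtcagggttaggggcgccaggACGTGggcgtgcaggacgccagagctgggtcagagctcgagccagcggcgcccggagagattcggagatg

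All 10 neuroblastoma markers looked for were measured, including MYCN, HAND2, DBH and TH, and their summed level was 190465 to 224465 normalised reads in EMEM/F12 and 171444 to 178848 in HPLM. Normalised reads are read counts divided by 1 factor per library. Of these markers 3 rose and 7 fell, MYCN among the latter, with 72489 ± 6913 normalised reads in EMEM/F12 and 29419 ± 887 in HPLM. Of 7 adipocyte markers CFD was measured, at a sum of 3.49 to 12.9 normalised reads over all libraries, and ADIPOQ, LEP, PLIN1, CIDEC, FABP4 and LPL were not analysed here. EMEM/F12 library 3 stood apart: its 10 fibroblast markers summed to 93574 normalised reads, against 44912 and 47076 in EMEM/F12 libraries 1 and 2 and 74972 to 82469 in HPLM. COL1A1 was the most abundant of these. In EMEM/F12 it had 53750 normalised reads in library 3, against 21276 and 22731 in libraries 1 and 2. COL1A2, COL3A1, DCN, PDGFRA, FAP and POSTN were likewise higher in library 3. THY1 (7532) and PDGFRB (6124) were lower there than in libraries 1 and 2, and LUM lay between. In HPLM, THY1 rose, PDGFRB and LUM fell, and the other 7 were not called. Of 8 Schwann and glial markers 4 were measured, with sums of 153 to 189 normalised reads in EMEM/F12 and 308 to 315 in HPLM. In library 3 of EMEM/F12, 7 of the 10 members lay below both other libraries of that medium, 2 lay above both (ACADM and PLIN2), and CPT2 lay between. The log2 ratio of library 3 over the mean of libraries 1 and 2 ran from -0.28 (CPT1C) to 0.18 (PLIN2). The part of these marker levels in the results was not tested. RNA was measured in bulk, so fewer cells of a kind and less RNA per cell cannot be told apart.

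In HPLM, HILPDA fell most of the 10 members, CPT2, ACADM, HADHA and DGAT1 fell by smaller amounts, PNPLA2 and ACADVL rose, and CPT1A, CPT1C and PLIN2 did not pass the test. Here and below, rose and fell mean an adjusted p under 0.05 in the authors' deposited table, in which 55.6% of 16004 tested genes passed, 26.8% upward and 28.8% downward. The members' 2 rises and 5 falls are to be read against those shares. The median log2 fold change in the authors' deposited table was -0.24 over the members and 0.01 over all tested genes. At 2-fold or more, HILPDA was the member called, as a fall, against 12.1% of tested genes in either direction and 6.73% downward. Library values of the media did not overlap for 8 members, 2 of them higher and 6 lower in HPLM, while 68.6% of all genes had no overlap (33.6% higher and 35.0% lower). Without EMEM/F12 library 3, 2 members rose and 6 fell, CPT1C being added to the falls.

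**Figure D1:**
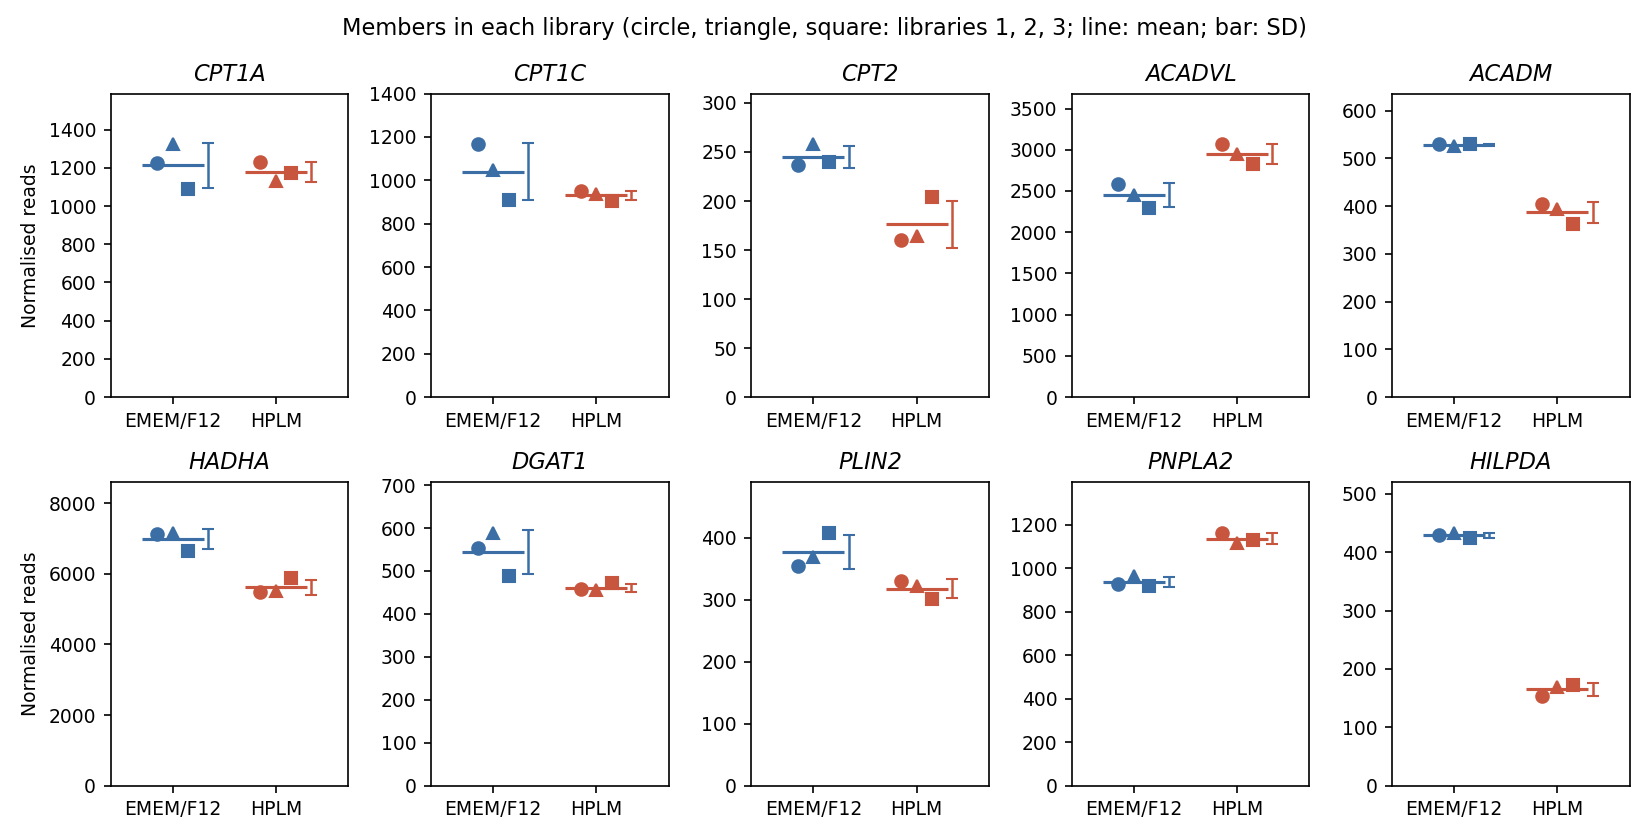
Normalised reads of each member (vertical axis, from 0) in the 3 libraries of EMEM/F12 (blue) and of HPLM (red), with the mean as a line and the SD as a bar. HILPDA shows the widest gap between media, CPT1A and CPT1C overlap, and the PNPLA2 and ACADVL libraries of HPLM all lie above those of EMEM/F12.

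The carnitine shuttle was uneven, with CPT2 lower in HPLM and neither CPT1 gene called. CPT1A (ENSG00000110090, chromosome 11, 68754620 to 68844410 on GRCh38) encodes the widely expressed CPT1 of the outer mitochondrial membrane. Its levels were 1228, 1324 and 1089 normalised reads in EMEM/F12 libraries 1, 2 and 3 and 1229.6, 1130.2 and 1174 in HPLM libraries 1, 2 and 3. The HPLM values all lie inside the EMEM/F12 range, with a log2 ratio of HPLM over EMEM/F12 of -0.04 ± 0.09 (SE, propagated from the SDs of 3 libraries per medium). The authors' deposited table gives it an adjusted p of 0.664, and a DESeq2 fit to the same reads gave a 95% interval of -0.19 to 0.11 for the log2 fold change.

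CPT1C (ENSG00000169169, chromosome 19, 49690898 to 49713731) encodes a neuronal CPT1 relative of the endoplasmic reticulum with little transferase activity. It had 1167, 1046 and 908 normalised reads in EMEM/F12 and 949, 935 and 907 in HPLM. The groups overlapped: library 3 of EMEM/F12 lay within the HPLM range, and the other EMEM/F12 libraries lay above it. The log2 ratio was -0.16 ± 0.11, with an adjusted p of 0.0937 in the authors' deposited table and a 95% interval of -0.33 to 0.00 from the DESeq2 fit. Without EMEM/F12 library 3 the DESeq2 log2 fold change was -0.25, with an adjusted p of 0.000632, whereas without EMEM/F12 library 1 it was -0.07, with an adjusted p of 0.584. Scaled on the spike-in RNAs, edgeR's quasi-likelihood test called it as well (-0.20, adjusted p 0.0228).

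CPT2 (ENSG00000157184, chromosome 1, 53196429 to 53214197) encodes the transferase of the inner membrane. It had 237, 258 and 239.6 normalised reads in EMEM/F12 and 161, 165 and 204 in HPLM. No library overlapped, although HPLM library 3 stood nearer to EMEM/F12 than the others did. CPT2 fell by 28.0%, from 245 ± 11.5 to 176 ± 23.9 normalised reads (mean ± SD of 3 libraries), a log2 ratio of -0.47 ± 0.12. The authors' deposited table gives an adjusted p of 0.00263. Within the shuttle list, 11 of 12 genes were measured, none rose and 2 fell, so 18.2% were called, against 55.6% of all tested genes. The falls were CPT2 and CROT, the peroxisomal carnitine octanoyltransferase gene (-0.62 ± 0.11, adjusted p 0.0109 in the authors' deposited table, and 0.0939 by DESeq2 without EMEM/F12 library 1). SLC25A20, the gene of the carnitine-acylcarnitine carrier, had a log2 ratio of 0.15 ± 0.05 and was not called (adjusted p 0.375 in the authors' deposited table).

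Of the acyl-CoA dehydrogenase genes ACADVL, ACADM and ACADS, the very-long-chain one rose while the medium-chain and short-chain ones fell. ACAD9, a dehydrogenase relative described below, fell too (log2 ratio -0.51 ± 0.04). ACADVL (ENSG00000072778, chromosome 17, 7217125 to 7225273) had 2588, 2451 and 2297 normalised reads in EMEM/F12 and 3068, 2953 and 2827 in HPLM. Every HPLM library was above every EMEM/F12 library. The rise was 20.6% (2445 ± 146 to 2949.5 ± 121 normalised reads, log2 ratio 0.27 ± 0.06), with an adjusted p of 6.38e-06 in the authors' deposited table. ACADVL shares 85 exon bases with DLG4 on the opposite strand, and strand is not marked by the kit used. CPT2 likewise shares 99 exon bases with C1orf123, which rose (0.32 ± 0.06). Transcripts overlapping CPT2, HILPDA, PNPLA2 and DGAT1 that were not analysed here share further bases. DLG4 itself had 492 ± 49.5 and 501 ± 20.6 normalised reads and was not called (adjusted p 0.835 in the authors' deposited table).

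ACADM (ENSG00000117054, chromosome 1, 75724347 to 75787575), the medium-chain dehydrogenase gene, had 529.8, 525 and 529.9 normalised reads in EMEM/F12 and 405, 394 and 362 in HPLM. The EMEM/F12 libraries were nearly identical and all above HPLM. It fell by 26.8%, with a log2 ratio of -0.45 ± 0.05 and an adjusted p of 1.12e-05 in the authors' deposited table. Its 157 exon bases shared with RABGGTB on the same strand make part of the count uncertain, and RABGGTB fell too (-0.60 ± 0.03). ACADS, for the short-chain dehydrogenase, fell by 0.61 on the log2 scale (-0.61 ± 0.08), from 163 ± 7.78 to 107 ± 8.79 normalised reads. Per kilobase of longest transcript, ACADVL stood at 4.83 to 5.44 times ACADM in the EMEM/F12 libraries and at 8.35 to 8.69 times in the HPLM libraries. The ratio was thus higher in all 3 HPLM libraries.

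HADHA (ENSG00000084754, chromosome 2, 26190635 to 26244726) encodes the subunit of the trifunctional protein that carries the hydratase and long-chain 3-hydroxyacyl-CoA dehydrogenase activities. It had 7138, 7166 and 6644 normalised reads in EMEM/F12 and 5471, 5508 and 5867 in HPLM, with no overlap. It fell by 19.6% (log2 ratio -0.31 ± 0.05), with an adjusted p of 8.14e-11 in the authors' deposited table. HADHB (ENSG00000138029, chromosome 2, 26243170 to 26290468), the thiolase subunit gene on the other side of the promoter printed above, had 1572, 1568 and 1607 normalised reads in EMEM/F12 and 1591, 1705 and 1658 in HPLM. Its libraries overlapped, its log2 ratio was 0.06 ± 0.03, and its adjusted p was 0.384 in the authors' deposited table, with a 95% interval of -0.05 to 0.18 from the DESeq2 fit. No exon bases of the 2 genes overlap in GENCODE release 29.

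The ratio of HADHA to HADHB per kilobase was 4.24, 4.27 and 3.86 in EMEM/F12 libraries 1, 2 and 3 and 3.21, 3.02 and 3.31 in HPLM. The ratio was lower in every HPLM library, by 0.38 on the log2 scale of the mean ratios (-0.38). HADH, the gene of the dehydrogenase for shorter 3-hydroxyacyl chains, fell further, from 686 ± 26.7 to 257 ± 15.4 normalised reads (log2 ratio -1.42 ± 0.06, adjusted p 1.67e-44 in the authors' deposited table). Between libraries of 2 media with 3 each, a two-sided exact permutation test cannot go below p = 0.10. That value was reached by the ratios HADHA over HADHB, ACADVL over ACADM and PNPLA2 over HILPDA (adjusted p 0.133 over the 4 ratios computed). ACADVL and PNPLA2 were higher, and ACADM and HILPDA lower, in every HPLM library. For these pairs the outcome of the test was thus fixed beforehand, and HADHB was picked after its values were seen. The test therefore adds nothing to the calls of the single genes. The ratio CPT1A over CPT1C, at 0.661 ± 0.0616 in EMEM/F12 and 0.714 ± 0.0281 in HPLM, gave an exact p of 0.20.

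**Figure D2:**
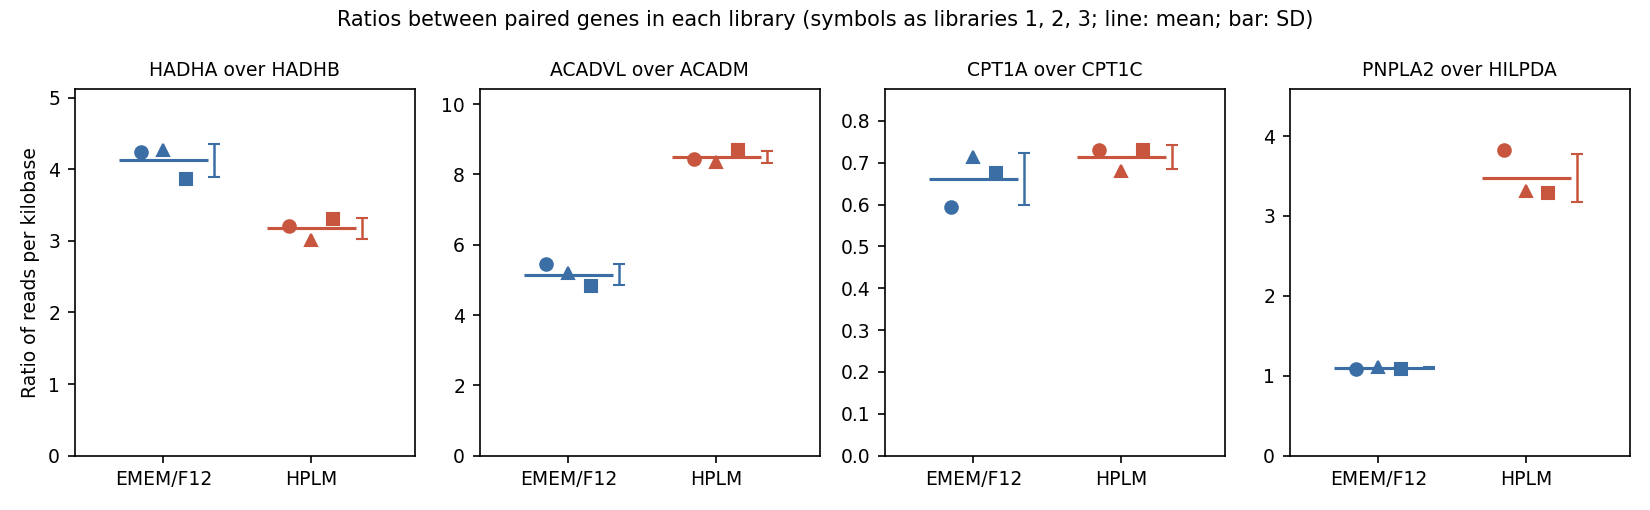
Ratio of normalised reads per kilobase (vertical axes, from 0) for 4 pairs of genes in the 3 libraries of each medium, with the mean as a line and the SD as a bar. HADHA over HADHB is lower, and ACADVL over ACADM and PNPLA2 over HILPDA are higher, in every HPLM library, while CPT1A over CPT1C overlaps.

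The wider list of the mitochondrial spiral, of which 20 of 21 genes were measured, held 12 falls, 1 rise (ACADVL) and a median log2 fold change of -0.28 in the authors' deposited table, against 0.01 over all tested genes. Of its genes 65% were called, against 55.6% of all genes, and without EMEM/F12 library 3 the DESeq2 fit called 2 rises in place of 1. ACAA2, the mitochondrial thiolase gene (-0.53 ± 0.01), and ACAD9, a dehydrogenase relative that also serves complex I assembly (-0.51 ± 0.04), fell. So did ETFA (-0.31 ± 0.03) and ETFB (-0.54 ± 0.03), whose products take electrons from the dehydrogenases, and DECR1, which acts on unsaturated chains (-0.29 ± 0.04). ECHS1, the short-chain hydratase gene, had a log2 ratio of -0.09 ± 0.02 and was not called. These 6 genes and HADHB were picked after their values were seen.

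In the peroxisomal list, with 15 of 16 genes measured, 9 fell and 2 rose, at a median log2 fold change of -0.34 in the authors' deposited table. Of its genes 73.3% were called, against 55.6% of all tested genes. ABCD2, a transporter of very-long-chain acyl-CoA (-0.86 ± 0.07), and DECR2 (-0.65 ± 0.06) fell most of those at 100 or more normalised reads. AMACR, a racemase for branched chains (0.44 ± 0.14), and ACOT8, a thioesterase (0.23 ± 0.06), were the rises, with adjusted p of 0.0461 and 0.0410 in the authors' deposited table. By DESeq2, AMACR was called in 1 of the 6 fits that left out 1 library, and ACOT8 in 2 of them.

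DGAT1 (ENSG00000185000, chromosome 8, 144314584 to 144326910) encodes an enzyme of the last step of triacylglycerol synthesis. It had 552, 589 and 488 normalised reads in EMEM/F12 and 457, 455 and 471 in HPLM. The groups did not overlap, and EMEM/F12 library 3 was the lowest of its medium and the nearest to HPLM. The fall was 15.2% (log2 ratio -0.24 ± 0.08), with an adjusted p of 0.0298 in the authors' deposited table. By DESeq2 it was called in 1 of 6 fits that left out a library: without EMEM/F12 library 3 the adjusted p was 0.00150, and it rose to 0.110 without EMEM/F12 library 1, 0.203 without EMEM/F12 library 2, and 0.0939, 0.102 and 0.0644 without HPLM libraries 1, 2 and 3. DGAT1 shares 139 exon bases with HSF1 on the opposite strand, which had a log2 ratio of 0.13 ± 0.05. DGAT2, the other enzyme of that step, fell from 90.7 ± 14.5 to 54.0 ± 8.05 normalised reads (-0.75 ± 0.18), with an adjusted p of 0.00469 in the authors' deposited table and of 0.0581 by DESeq2 without EMEM/F12 library 2.

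In the triacylglycerol synthesis list, which also holds the cholesteryl ester gene SOAT1, 14 of 16 genes were measured. Of these, 3 rose and 6 fell, SOAT1 among the falls, so 64.3% were called, against 55.6% of all tested genes. GPAM, the mitochondrial acyltransferase of the first step, rose by 0.55 ± 0.04 in log2 ratio (874 ± 34.6 to 1277 ± 28.8 normalised reads), and LPIN2, a phosphatidate phosphatase gene, rose by 0.31 ± 0.06. LPIN2 was not called by DESeq2 without HPLM library 3 (adjusted p 0.0633). AGPAT2, an acyltransferase of the second step, fell from 559 ± 6.99 to 332 ± 26.6 normalised reads (-0.75 ± 0.07), as did SOAT1, which makes cholesteryl esters (-0.54 ± 0.06). The median of the list in the authors' deposited table was -0.17.

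PLIN2 (ENSG00000147872, chromosome 9, 19108375 to 19149290), the gene of the perilipin found on droplets of most cells, had 355, 368 and 409 normalised reads in EMEM/F12 and 331, 323 and 301 in HPLM. The HPLM libraries were all lower, with 331 as their highest and 355 as the lowest of EMEM/F12. The log2 ratio was -0.24 ± 0.07 and its adjusted p was 0.0506 in the authors' deposited table, with a 95% interval of -0.46 to -0.03 from the DESeq2 fit before adjustment. The edgeR test on the recovered reads gave an adjusted p of 0.0290, and 0.00720 with spike-in scaling. None of the 6 DESeq2 fits without 1 library called it (adjusted p up to 0.185).

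In the coat and assembly list, which includes PLIN2, 12 of 17 genes were measured, 5 rose and 3 fell. Their median was -0.11 in the authors' deposited table, and 66.7% were called, against 55.6% of all tested genes. FAF2, an adaptor of the droplet-anchored degradation machinery (0.44 ± 0.05), and FITM2, which aids droplet budding (0.44 ± 0.05), rose. METTL7A, a droplet-associated methyltransferase-like gene, fell by 0.72 on the log2 scale (-0.72 ± 0.02), and LDAH, a droplet hydrolase gene, fell by 0.28 on the log2 scale (-0.28 ± 0.03). PLIN3, the perilipin that moves between cytosol and droplets, had a log2 ratio of -0.20 ± 0.10 with an adjusted p of 0.0464 in the authors' deposited table. It was not called by edgeR (adjusted p 0.0815), nor by DESeq2 without HPLM library 1, 2 or 3 (adjusted p 0.191, 0.0795 and 0.159) or without EMEM/F12 library 3, where its log2 fold change was -0.10 (adjusted p 0.267). The edgeR test called 4 falls in this list, or 5 with spike-in scaling.

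PNPLA2 rose while HILPDA, an inhibitor of its product, fell. PNPLA2 (ENSG00000177666, chromosome 11, 818902 to 825573) had 928, 962 and 919 normalised reads in EMEM/F12 and 1164, 1115 and 1129 in HPLM. All HPLM libraries were higher, by 21.3% in the mean (936 ± 23.1 to 1136 ± 25.4 normalised reads, log2 ratio 0.28 ± 0.03). In the authors' deposited table its adjusted p was 0.000119, and all 11 alternative fits called the rise.

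HILPDA (ENSG00000135245, chromosome 7, 128455849 to 128458418), a gene known to respond to hypoxia, had 429, 434 and 424 normalised reads in EMEM/F12 and 153, 169 and 173 in HPLM. The libraries of each medium lay close together and far from the other medium. The fall was 61.5% (429 ± 4.70 to 165 ± 10.5 normalised reads, log2 ratio -1.38 ± 0.05), with an adjusted p of 7.38e-29 in the authors' deposited table. A log2 fold change as low or lower was found for 3.24% of tested genes. Over the 11 alternative fits its log2 fold change ran from -1.42 to -1.33, and all of them called it. Per kilobase, PNPLA2 stood at 1.09, 1.12 and 1.09 times HILPDA in EMEM/F12 and at 3.82, 3.31 and 3.29 times in HPLM.

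G0S2, the gene of another PNPLA2 inhibitor, went the opposite way to HILPDA. It had 24.7, 25.6 and 24.9 normalised reads in EMEM/F12 and 159.6, 152 and 149 in HPLM, a 6.13-fold rise (log2 ratio 2.62 ± 0.03, adjusted p 6.33e-25 in the authors' deposited table). G0S2 has a mean under 100 normalised reads and was picked after its values were seen. ABHD5, the coactivator of PNPLA2, rose from 141 ± 13.1 to 254 ± 19.9 normalised reads (0.85 ± 0.10), and LIPA, the lysosomal lipase gene, rose by 0.43 ± 0.07. MGLL, the monoacylglycerol lipase gene, fell (-0.39 ± 0.21), but its DESeq2 log2 fold change was -0.18 without EMEM/F12 library 3 (adjusted p 0.120) and -0.33 without HPLM library 3 (adjusted p 0.111). The hormone-sensitive lipase gene LIPE had a log2 ratio of 0.30 ± 0.10, with an adjusted p of 0.0571 in the authors' deposited table and of 0.0106 by edgeR. In all, 11 of 13 listed genes of lipolysis and its inhibitors were measured, 4 rose and 2 fell, at a median of 0.28 in the authors' deposited table. The inhibitor gene G0S2 is among the rises and the inhibitor gene HILPDA among the falls. The share called was 54.5%, near the 55.6% of all tested genes. The edgeR test called 3 falls, or 4 with spike-in scaling, and DESeq2 without HPLM library 3 called 1.

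**Figure D3:**
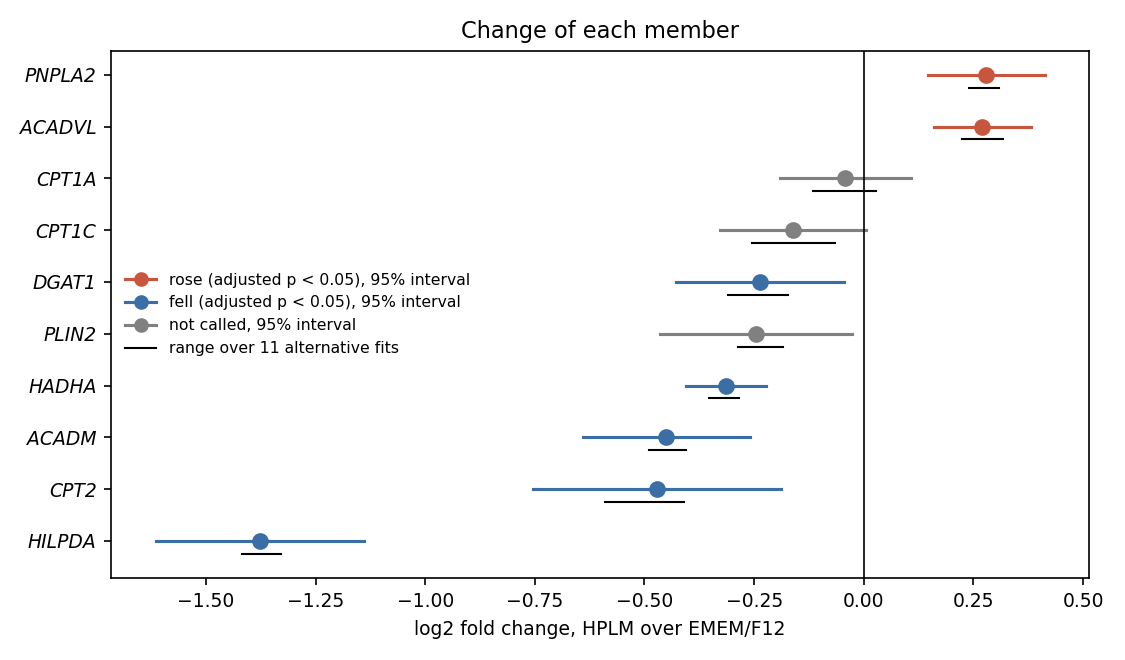
Log2 fold change of HPLM over EMEM/F12 (horizontal axis) for each member, with a point for the authors' deposited value, a coloured line for the 95% interval of a DESeq2 fit to the recovered reads and a black line for the range over 11 alternative fits. HILPDA lies apart at -1.38, PNPLA2 and ACADVL lie to the right of 0, and the CPT1A interval spans 0.

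Genes around these steps moved both ways. In fatty acid uptake, binding and activation, 15 of 19 genes were measured, 3 rose and 4 fell. That is 46.7% called, against 55.6% of all tested genes. FABP5, an intracellular fatty acid binding protein gene, had 1196 ± 66.6 and 421 ± 6.10 normalised reads and fell (log2 ratio -1.51 ± 0.05), and DBI, which encodes the acyl-CoA binding protein, fell by 0.93 on the log2 scale (-0.93 ± 0.08). ACBD3, a Golgi protein gene with an acyl-CoA binding domain, rose (0.77 ± 0.06), as did SLC27A3, of the fatty acid transport protein family (0.64 ± 0.09). The list's median in the authors' deposited table was 0.00.

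Malonyl-CoA, the inhibitor of CPT1, is made by the carboxylases ACACA and ACACB. ACACA fell from 4059.9 ± 71.4 to 2251 ± 23.5 normalised reads (log2 ratio -0.85 ± 0.02), and ACACB from 235 ± 34.0 to 163 ± 6.55 (-0.52 ± 0.12). PRKAB2, a subunit gene of the kinase AMPK, which phosphorylates these carboxylases, rose from 534 ± 17.9 to 1372 ± 19.4 normalised reads (1.36 ± 0.03), and the AMPK subunit gene PRKAG1 rose by 0.42 ± 0.06. Of the 10 genes listed and measured, 3 rose and 2 fell, so 50% were called, against 55.6% of all tested genes.

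Among 17 regulators of oxidation, 7 rose and 4 fell, so 64.7% were called, against 55.6% of all tested genes. The coactivators PPARGC1A and PPARGC1B moved apart. PPARGC1A had 197, 230.1 and 213 normalised reads in EMEM/F12 and 474, 525 and 481 in HPLM (log2 ratio 1.21 ± 0.08). PPARGC1B had 677, 649.7 and 624 in EMEM/F12 and 309.8, 283 and 348 in HPLM (-1.05 ± 0.09). The deacetylase gene SIRT1 rose (0.63 ± 0.06), and the gene of the hypoxia-inducible factor EPAS1 fell (-0.82 ± 0.06). HIF1A, the gene of its relative, fell from 4822 ± 79.7 to 3797 ± 41.3 normalised reads (-0.34 ± 0.02) and was picked after its values were seen. Of 14 listed PPAR targets 11 were measured, 2 rose and 2 fell, which is 36.4% called, against 55.6% of all tested genes. TXNIP rose (1.19 ± 0.02) with ACADVL, UCP2 fell (-0.24 ± 0.09), and ANGPTL4, a secreted lipase inhibitor gene of low level, fell from 57.9 ± 15.3 to 21.5 ± 3.79 normalised reads. CPT1A and PLIN2, which also stand in that list, were not called.

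**Figure D4:**
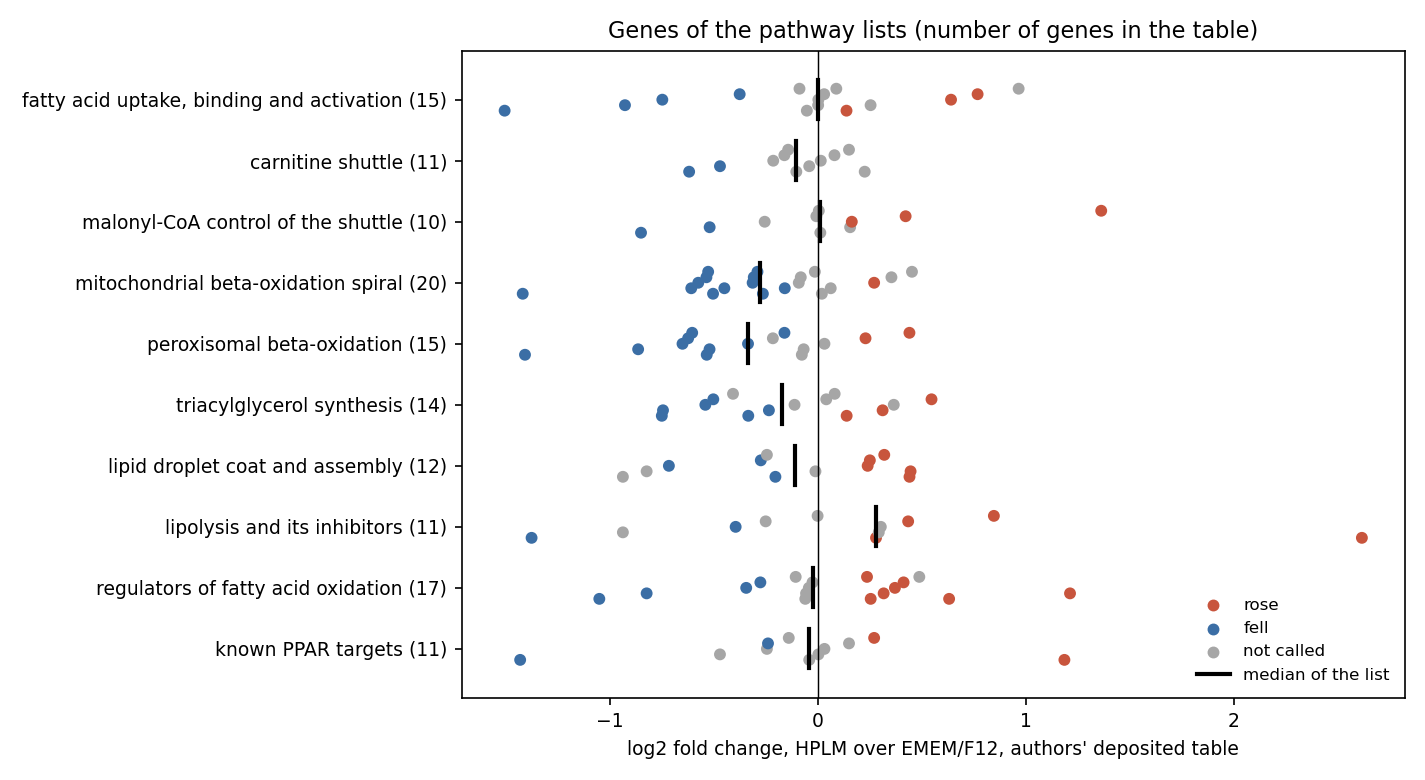
Log2 fold change in the authors' deposited table (horizontal axis) of each measured gene of the 10 pathway lists, coloured by whether it rose, fell or was not called, with a black bar for the median of each list. The mitochondrial and peroxisomal oxidation lists have their medians at -0.28 and -0.34, and G0S2 is the point farthest to the right, in the lipolysis list.

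Levels per length kept HADHA and ACADVL highest and CPT2 lowest in both media, while the order between them differed. In EMEM/F12, HADHA was highest at 2262 ± 95.1 normalised reads per kilobase of its longest transcript, followed by ACADVL at 1039.7 ± 61.9, and CPT2 was lowest at 54.0 ± 2.52. In between, CPT1C (353 ± 43.8) and PNPLA2 (343 ± 8.46) did not differ beyond their SDs, nor did CPT1C and HILPDA (313 ± 3.43). CPT1A (232 ± 22.6), ACADM (202 ± 0.988), PLIN2 (191 ± 14.2) and DGAT1 (146 ± 13.8) followed, of which ACADM and PLIN2 overlapped. In HPLM the order was HADHA (1819 ± 70.8), ACADVL (1254 ± 51.3), PNPLA2 (417 ± 9.33), CPT1C (315 ± 7.37), CPT1A (225 ± 9.52), PLIN2 (161 ± 7.73), ACADM (148 ± 8.47), DGAT1 (124 ± 2.40), HILPDA (120.4 ± 7.66) and CPT2 (38.9 ± 5.26) per kilobase. PLIN2 and ACADM, and DGAT1 and HILPDA, did not differ beyond their SDs there. On this length HILPDA moved from the fifth place to the ninth. The middle of the order depends on the length used. Per kilobase of all annotated exons merged, CPT1A stood above CPT1C, at 185 against 177 normalised reads in EMEM/F12 and 179 against 159 in HPLM. On that length DGAT1 (132 and 112 in EMEM/F12 and HPLM) stood above ACADM (110.5 and 80.9) and PLIN2 (74.2 and 62.6), and HILPDA moved from the fourth place (207) to the eighth (79.7). HADHA, ACADVL and CPT2 kept the first, second and last places in both media.

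**Figure D5:**
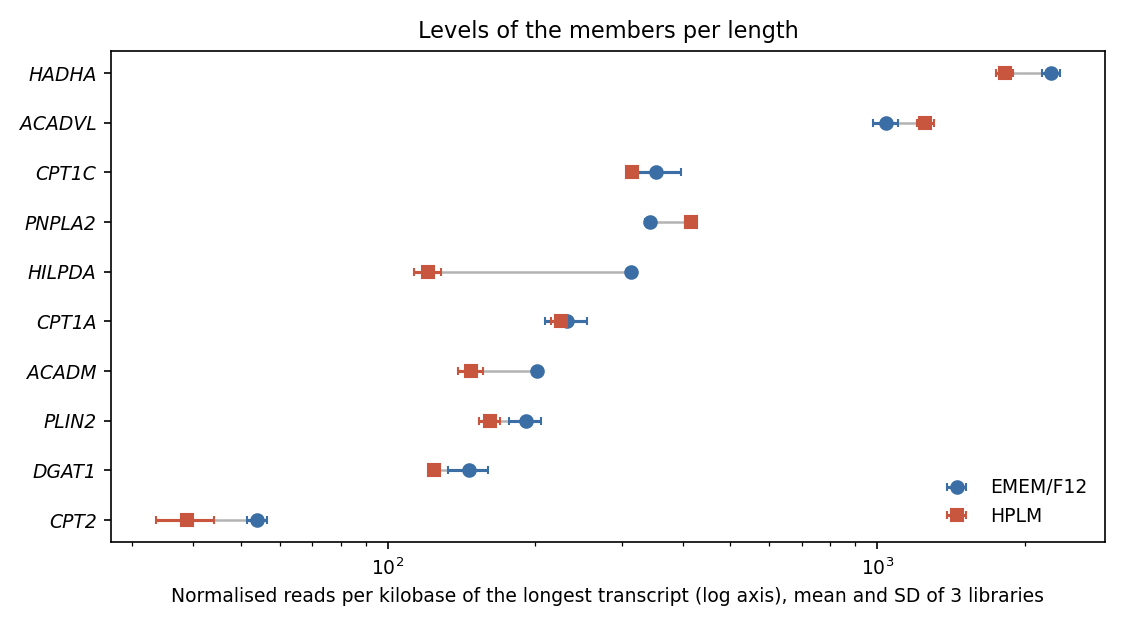
Normalised reads per kilobase of longest transcript (horizontal log axis) of each member in EMEM/F12 (blue circles) and HPLM (red squares), mean with SD of 3 libraries. HADHA and ACADVL lie highest in both media and CPT2 lowest, and HILPDA drops from 313 to 120.4.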

How the data were processed

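Polyadenylated RNA of BE(2)-C cells in EMEM/F12 or HPLM was sequenced, from libraries of an unstranded kit (TruSeq RNA Library Prep Kit v2), per the labels' protocols. The submitters' processing notes name Trimmomatic 0.36, STAR 2.5.2b, Subread 1.5.2, DESeq2 and GRCh38, without saying which step used which. The annotation and the strand setting are not stated. Each of the 6 library columns holds a deposited signal, namely read counts divided by 1 factor. Dividing by the value of 1 read gave whole reads for 100% of values (tolerance 0.01 reads). The authors deposited log2 fold changes and p-values, raw and adjusted, and an adjusted p under 0.05 is the main call. DESeq2 1.42.0 on the recovered reads called the same 8905 genes. The edgeR 4.0.16 quasi-likelihood test called 5259 rises and 4999 falls among 15971 genes.

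Means, SDs and log2 ratios over libraries were computed in Python 3.11.15 (numpy 2.4.6; pandas 2.3.3; scipy 1.17.1) and plotted with matplotlib 3.10.9. Coordinates and lengths come from GENCODE release 29, which matched 15955 of 16005 genes by identifier. The 46 spike-in lines, 0.804% to 0.887% of reads, entered no count of genes. The count tests were tested on simulated data. The members and all lists were chosen with earlier results of these data known. Beyond the members, the rule for naming took from each list at most 2 called genes per direction, those of largest change with a mean of at least 100 normalised reads, and MYCN. The remaining genes (ACAA2, ACAD9, ANGPTL4, CROT, DECR1, DGAT2, ECHS1, ETFA, ETFB, G0S2, HADHB, HIF1A, LIPE, PLIN3, SLC25A20 and those under other observations) were picked after their values were seen. Alternatives were other thresholds, DESeq2 on genes alone, edgeR with and without a filter, spike-in scaling, the library number as a block, recentring, leaving out each library and, added after the data were seen, the merged exon length. A count of 0 allows up to 3 reads, or 2.68 to 3.49 normalised reads, by counting error only.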

Additional observations from a re-analysis of the deposited data

How the results depend on the processing

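A call at 2-fold or more left 0 members that rose and 1 that fell, and 4 rises and 5 falls among the 119 other genes of the pathway lists, in place of 27 and 41. Under the other settings the members that rose stayed at 2 and those that fell ranged from 4 to 7. The settings that left out 1 library gave 22 to 28 rises and 37 to 42 falls among the list genes. CPT1A, not called under any setting, ranged from -0.12 to 0.027 when 1 library was left out, with 0.027 without EMEM/F12 library 2. CPT2, ACADM, ACADVL, HADHA, HILPDA and PNPLA2 were called in all 11 alternative fits, DGAT1 in 6, PLIN2 in 3 and CPT1C in 2. The cause of these differences was not tested.

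Spike-in scaling moved the median gene to -0.03, against 0.04 by edgeR's own scaling. The labels give the libraries no replicate numbers. Libraries of the same column number did not deviate together from their medium's mean over 11083 genes (r = -0.08, -0.15 and -0.25 for numbers 1, 2 and 3). Between libraries of different numbers, r ran from -0.16 to 0.225. Deviations from a mean of 3 libraries are not independent of each other, so these values cannot tell whether the number pairs samples. With the number as a replicate block, edgeR called 2 rises and 5 falls among the members and 29 rises and 40 falls among the list genes and did not call PLIN2, which it called without the block. MGLL, called by edgeR without the block, had an adjusted p of 0.0622 with it, and PLIN3 was called by edgeR neither without it (0.0815) nor with it (0.0800).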

Other observations

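ABCD3, which encodes a peroxisomal transporter of branched acyl-CoA and was picked after its values were seen, fell in HPLM from 618 ± 9.47 to 407 ± 21.9 normalised reads (log2 ratio -0.60 ± 0.05). ABCD2 fell from 543 ± 7.42 to 298 ± 25.7 (-0.86 ± 0.07).

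The genes of the AGPAT acyltransferases, likewise picked after their values were seen, were uneven. AGPAT3 fell from 2160.5 ± 69.4 to 1524 ± 10.5 normalised reads (-0.50 ± 0.03) and AGPAT5 from 1545 ± 67.8 to 1224 ± 50.4 (-0.34 ± 0.05). AGPAT1 (0.08 ± 0.07) and AGPAT4 (-0.11 ± 0.05) were not called in the authors' deposited table, and AGPAT4 had an adjusted p of 0.0450 by edgeR with spike-in scaling.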
